A study of Mus musculus with 6 samples.

Results

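The cytosolic heat shock chaperone genes, Hsph1, Hsp90aa1 and Dnaja1, were described in the reperfused mouse heart with and without trimethylamine N-oxide (TMAO) in the drinking water. They were chosen by symbol, 3 of the 149 genes in a table that the authors had filtered for a difference between these groups. The samples were hearts of male wild-type C57BL/6 mice given a 45 min tie of the left anterior descending artery and 24 h of reperfusion. One group (IR, 3 libraries) had only this ischaemia-reperfusion procedure, and the other (TMAO+IR, 3 libraries) also drank 0.12% TMAO for 4 weeks before it and during it. RNA came from the ischaemia-reperfusion region of the heart muscle and was selected for poly(A) before sequencing. Both groups therefore carry the injury, and an uninjured heart was not analysed here. The labels give no age for the mice. The libraries are numbered within each group and no animal is named, so their spread may be technical in part.

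Heat shock chaperones bind unfolded or damaged proteins and help them fold again. HSP70 takes up unfolded stretches of protein in a cycle driven by ATP. J-domain proteins such as the product of Dnaja1 deliver clients to HSP70 and speed its ATP hydrolysis. Large HSP70-related proteins such as the product of Hsph1 reopen HSP70 by exchanging its nucleotide and also hold unfolded proteins. HSP90, of which Hsp90aa1 encodes the stress-inducible cytosolic form, takes over many kinases and steroid receptors at a late stage of folding. Genes of this kind are induced by heat shock factor 1, which binds heat shock elements, arrays of the unit GAA in alternating orientation. In heart muscle they are known to respond to heat, ischaemia and reperfusion.

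RefSeq promoter windows (GRCm38.p6, from 250 bases before a transcription start to 50 after it) were present for Hsph1 and Dnaja1 (2 of the 3 genes). They were searched for the heat shock element as a description of these genes. The 2-unit form was TTCNNGAA or GAANNTTC, each of which reads the same on both strands. The 3-unit form, searched on both strands, adds 1 alternating unit after a spacer of 2 bases, so every 3-unit match also holds 2-unit matches. In the lines that follow, capitals mark the units and each sequence is written 5′ to 3′ on the strand of its gene. The Hsph1 lines show the matches with their flanks, and the Dnaja1 line shows all 250 bases before its first start.
Hsph1, 2-unit match, chr5:149636351-149636380, minus strand: gggtagaatctTTCtcGAAggctcgagaag
Hsph1, 3-unit match, chr5:149636287-149636315, minus strand: gtaaaatgctgcagaTTCtgGAAagTTCt
Dnaja1, 2-unit match, chr4:40722218-40722467, plus strand: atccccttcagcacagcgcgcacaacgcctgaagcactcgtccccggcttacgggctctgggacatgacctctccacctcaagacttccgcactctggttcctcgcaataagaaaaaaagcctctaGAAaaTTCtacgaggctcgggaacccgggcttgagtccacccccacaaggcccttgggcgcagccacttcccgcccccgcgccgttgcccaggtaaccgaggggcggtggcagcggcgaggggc

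The Hsph1 windows held a full 3-unit match, which lay 37 to 49 bases into the transcript from the first of 2 RefSeq starts. In GENCODE M21 this stretch lies in an exon of 3 transcripts and is marked as untranslated sequence in 2 of them and as coding sequence in none. A second, 2-unit match stood at -33 to -26 from the same start, inside the untranslated first exon of 1 GENCODE transcript that begins further upstream. Dnaja1 had 3 windows, and the first held a 2-unit match at -124 to -117, inside an exon of 1 GENCODE transcript of the gene and in no untranslated or coding part. The 3-unit form was found in 0.603% of all 32851 promoter windows and the 2-unit form in 15.1%. Among the 109 of the 149 listed genes that had a window, Hsph1 was the one gene with a 3-unit match, and the 2-unit form was found in 20 genes. Of 89 genes with a window in the chaperone lists described later in the text, 5 held the 3-unit form, namely Chordc1, Dnajb6, Hspd1, Hspe1 and Hsph1. A match describes the letters in the window, and binding was not measured.

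All 3 chaperone genes had a higher mean level in TMAO+IR than in IR. The level is given as FPKM, the number of sequenced fragments scaled for transcript length and library size, which can be compared between genes. Hsph1 (ENSMUSG00000029657) spans 149614287 to 149636376 of chromosome 5 on the minus strand of GRCm38. Its level was 11.6, 25.5 and 12.5 FPKM in IR replicates 1, 2 and 3, and 106, 156 and 42.0 FPKM in TMAO+IR replicates 1, 2 and 3. The groups did not overlap, and the lowest TMAO+IR library stood 1.64-fold above the highest IR library. The group means were 16.5 ± 7.81 and 101 ± 57.3 FPKM (SD, n = 3 each). In read counts, Hsph1 went from 779, 1943 and 855 in the IR libraries to 5239, 11287 and 2593 in the TMAO+IR libraries.

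Hsp90aa1 (ENSMUSG00000021270) spans 110690605 to 110702728 of chromosome 12, also on the minus strand. Its level was 23.0, 45.8 and 27.2 FPKM in IR replicates 1, 2 and 3, and 130, 164 and 50.6 FPKM in TMAO+IR replicates 1, 2 and 3. The groups did not overlap, but TMAO+IR replicate 3 was only 1.11-fold above IR replicate 2. The means were 32.0 ± 12.1 FPKM in IR and 115 ± 58.1 FPKM in TMAO+IR (SD, n = 3 each). Its counts were 1385, 2801 and 1985 in the IR libraries and 6712, 11106 and 3454 in the TMAO+IR libraries. The sources used here do not say how reads shared with the closely related Hsp90ab1 were assigned, so the level of Hsp90aa1 is uncertain to that extent.

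Dnaja1 (ENSMUSG00000028410) spans 40722150 to 40737149 of chromosome 4 on the plus strand. Its level was 24.7, 39.9 and 29.3 FPKM in IR replicates 1, 2 and 3, and 76.8, 121 and 38.3 FPKM in TMAO+IR replicates 1, 2 and 3. Here the groups overlapped, because TMAO+IR replicate 3 lay below IR replicate 2. In counts scaled for library size the same libraries stood the other way round, at 1661 in TMAO+IR replicate 3 and 1634 in IR replicate 2. Their exact Poisson intervals at 95%, which cover counting error only, ran from 1581 to 1743 and from 1557 to 1713, so these libraries could not be told apart at this depth. The group means were 31.3 ± 7.79 and 78.7 ± 41.4 FPKM (SD, n = 3 each). The raw counts of Dnaja1 were 1001, 1713 and 1439 in the IR libraries and 2767, 5044 and 1649 in the TMAO+IR libraries. The annotation has 3 genes that overlap the Dnaja1 locus, the protein-coding Smu1 and the non-coding Gm6297 on the opposite strand and Mir207 on the same strand. The protocol names no step that marks strand, so reads of Dnaja1 and of these neighbours cannot be told apart where they overlap.

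**Figure D1:**
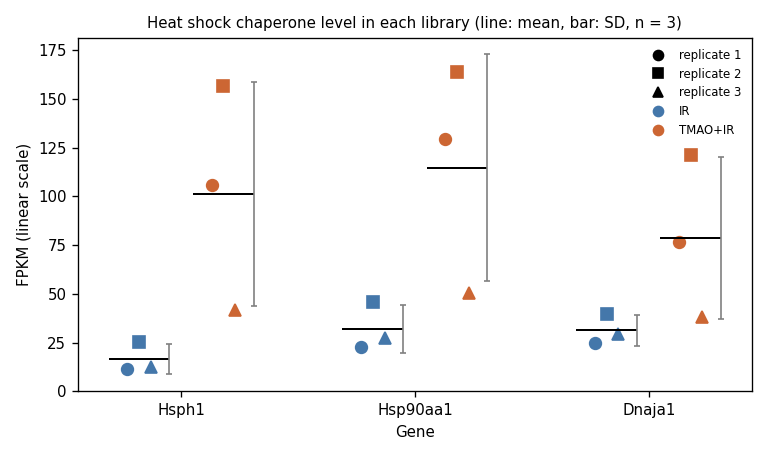
FPKM of Hsph1, Hsp90aa1 and Dnaja1 (horizontal axis) in each library, with IR in blue and TMAO+IR in orange, marker shape for the replicate number, a line at the group mean and a bar of 1 SD (n = 3). TMAO+IR replicate 2 is highest for every gene, at 156, 164 and 121 FPKM, and TMAO+IR replicate 3 is the lowest of its group, at 42.0, 50.6 and 38.3 FPKM.

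Membership in the deposited table is itself a selection on this contrast. The smallest log2 fold change in size was 1.001 and the largest false discovery rate (FDR) was 0.0487 in the authors' deposited table, so 100% of the 149 genes were called and 81.9% were called as higher in TMAO+IR. All 3 chaperone genes were called as higher, and nothing is read from that count. In the authors' deposited table the log2 fold changes were 2.62 for Hsph1, 1.84 for Hsp90aa1 and 1.33 for Dnaja1. The FDR there was 0.0154 for Hsph1, 0.000164 for Hsp90aa1 and 0.0138 for Dnaja1. By signed fold change, where lower genes come last, these genes took places 4, 12 and 45 of 149 in the authors' deposited table. By p-value, which ranks both directions together, they took places 99, 17 and 92. Hsph1 thus stood near the top of the authors' deposited table by fold change and in its lower part by p-value. In FPKM, 2 of the 3 genes were higher in TMAO+IR with groups without overlap. Over the list this held for 116 genes, which is 77.9% of all 149 and nearly all of the 122 higher genes. In scaled counts it held for 3 of 3, against 120 listed genes (80.5% of all 149).

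A fit to the counts of all listed genes with edgeR gave log2 fold changes of 2.51 ± 0.44 for Hsph1, 1.89 ± 0.43 for Hsp90aa1 and 1.28 ± 0.42 for Dnaja1 (SE). With DESeq2 the SE of Hsph1 was larger, at 0.70. The values are given as a description, with no test, since the genes were selected on the same difference. On the linear scale they are 5.69-fold, 3.70-fold and 2.44-fold, beside a median log2 fold change of 1.16 over the 149 genes. Dnaja1 thus stood close to the median of the list, and Hsph1 far above it. TMM scaling within the table, which centres the selected list, gave 2.76-fold, 1.74-fold and 1.14-fold, with a log2 value of 0.18 ± 0.29 (SE) for Dnaja1. Without TMAO+IR replicate 2 the fold of Hsph1 was 3.74, a change of more than 1.5 times. That of Hsp90aa1 was then 2.82 and that of Dnaja1 1.81. Without IR replicate 2, the highest IR library, the 3 folds were 8.22, 4.49 and 2.75.

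The proportions between these genes also differed between the groups. Hsph1 stood at 0.503, 0.558 and 0.458 of the FPKM of Hsp90aa1 in IR replicates 1, 2 and 3, and at 0.815, 0.954 and 0.829 in the TMAO+IR replicates. Against Dnaja1, the Hsph1 level was 0.468, 0.639 and 0.425 in the IR replicates and 1.38, 1.29 and 1.10 in those of TMAO+IR. The order of Hsph1 and Dnaja1 was therefore turned round, with Dnaja1 the more abundant in all 3 IR libraries and Hsph1 in all 3 TMAO+IR libraries. Dnaja1 and Hsp90aa1 were nearly level in IR, at a mean ratio of 1.01 ± 0.119, and stood at 0.696 ± 0.0897 in TMAO+IR (SD, n = 3 each). None of the 3 ratios overlapped between the groups. They derive from the contrast on which the genes were selected and were not tested.

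In FPKM the ratios varied less between libraries of a group than the levels did. For Hsph1 to Dnaja1 in IR the reduction was slight, with an SD of the log2 ratio of 0.31 against 0.35 for the Dnaja1 level. Across the TMAO+IR libraries the SD of the log2 ratio of Hsph1 to Hsp90aa1 was 0.12, whereas the log2 levels themselves had SDs of 0.97 and 0.90. In the IR libraries the SD of the same ratio was 0.14, against 0.63 and 0.52 for the levels. Hsph1 and Hsp90aa1 thus went up and down together from one library to the next. The ratio of raw counts also did not overlap between the groups, with 0.431 to 0.694 in IR and 0.751 to 1.02 in TMAO+IR. The gap was narrower than in FPKM and the spread within each group wider. In FPKM the ratio ran from 0.458 to 0.558 in IR and from 0.815 to 0.954 in TMAO+IR. The raw count ratio of Hsph1 to Dnaja1 ran from 0.594 to 1.13 in IR. In proportion this range was wider than that of the Dnaja1 counts there, 1001 to 1713. The slight reduction for this pair in IR was therefore seen in FPKM only.

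**Figure D2:**
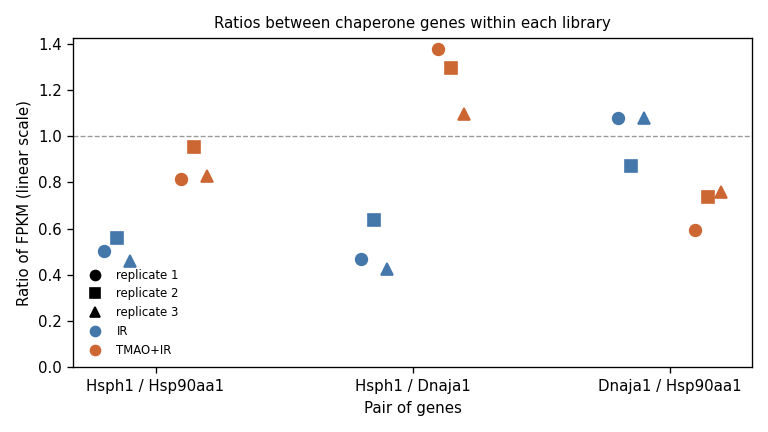
Ratio of FPKM within each library for 3 pairs of chaperone genes, with IR in blue, TMAO+IR in orange and marker shape for the replicate number. The ratio of Hsph1 to Dnaja1 lies between 0.425 and 0.639 in IR and between 1.10 and 1.38 in TMAO+IR, on either side of the dashed line at 1.

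The chaperone genes stood among the most variable listed genes in the TMAO+IR libraries. Spread was taken as the SD of log2(FPKM + 0.1) within a group, in the 86 listed genes that reached 1 FPKM or more throughout. In TMAO+IR it was 0.97 for Hsph1, 0.90 for Hsp90aa1 and 0.83 for Dnaja1, places 1, 2 and 3 of 86, where the median gene had 0.35. The next gene, the AP-1 subunit gene Fosl1, stood at 0.83 as well, so its distance to Dnaja1 was negligible. With scaled counts in place of FPKM the chaperone genes took places 1, 3 and 4. Over all 149 genes they took places 1, 3 and 5 in FPKM, with Gm14308 (0.96, at 0 to 0.27 FPKM in TMAO+IR) and Swt1 (0.87, at 1.03 to 3.37 FPKM) between them. Highest and lowest TMAO+IR libraries differed 3.73-fold in Hsph1, 3.24-fold in Hsp90aa1 and 3.16-fold in Dnaja1.

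In the IR group the same genes were less exceptional. Their SDs were 0.63, 0.52 and 0.35 there, places 13, 27 and 59 of 86, against a median of 0.42. All 3 had the larger spread in TMAO+IR, which held for 36 of the 86 genes. With 3 libraries a group these SDs are imprecise, and the difference in spread was not tested.

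**Figure D3:**
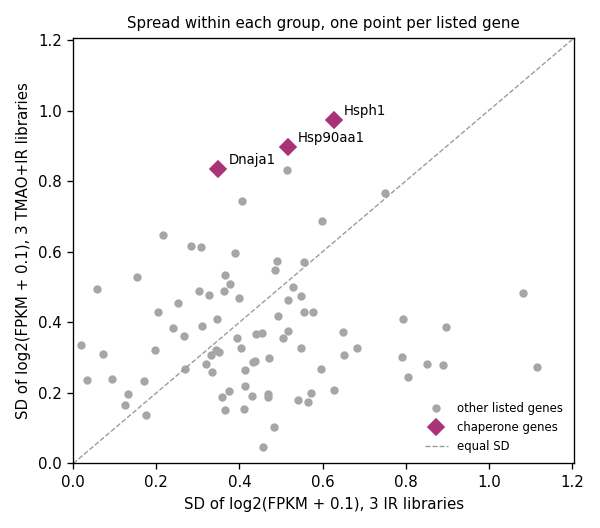
SD of log2(FPKM + 0.1) among the 3 IR libraries (horizontal) and the 3 TMAO+IR libraries (vertical) for the 86 listed genes with at least 1 FPKM throughout, with the chaperone genes as diamonds and a dashed line of equal SD. Hsph1, Hsp90aa1 and Dnaja1 lie at the top of these genes, at 0.97, 0.90 and 0.83 in TMAO+IR.

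The libraries kept one order in all 3 genes. Within TMAO+IR, replicate 2 was highest, replicate 1 next and replicate 3 lowest, and within IR replicate 2 was highest, replicate 3 next and replicate 1 lowest. The same order in both groups was found in 16 of the 122 listed genes that were higher in TMAO+IR, the chaperone genes included, which is 13.1%. Some of it is shared by the list at large, as TMAO+IR replicate 3 was the lowest of its group in 100 of these 122 genes and IR replicate 2 the highest of its group in 91. The lowest IR library was not shared in this way. IR replicate 1, the lowest for the chaperones, was lowest of its group in 37 of the 122 genes, and IR replicate 3 in 81. Recovered library sizes did not follow the order, with 18370943, 21534082 and 20826623 fragments in TMAO+IR replicates 1, 2 and 3 and 20681738, 21988546 and 22442171 in IR. Summed raw counts of the listed genes, chaperones included and not scaled for library size, followed it in TMAO+IR and only nominally in IR. These sums were 173473, 232484 and 141123 in TMAO+IR replicates 1, 2 and 3 and 73268, 110979 and 73981 in IR. IR replicates 1 and 3 were thus nearly level. IR replicate 3 was the larger library, so its lead over IR replicate 1 does not hold once library size is allowed for.

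To find genes of like pattern, the group mean was subtracted from log2(FPKM + 0.1), and Pearson correlations were taken over the 6 libraries against the 85 other genes with at least 1 FPKM throughout. These values describe 6 points that share their libraries, with 2 group means removed, and the median gene already reached 0.68 with Hsph1, 0.70 with Hsp90aa1 and 0.62 with Dnaja1. The chaperone genes correlated with one another at 0.992 (Hsph1 and Hsp90aa1), 0.972 (Hsph1 and Dnaja1) and 0.972 (Hsp90aa1 and Dnaja1). The gene nearest to each of the 3 in FPKM was Tnfaip6, whose secreted product binds hyaluronan, at 0.997 with Hsph1, 0.997 with Hsp90aa1 and 0.981 with Dnaja1. Has1, a hyaluronan synthase gene, was among the 5 nearest of each, at 0.981, 0.995 and 0.980. The others among the 5 nearest were Mid1, a ubiquitin ligase gene, and Lrrc32, whose product tethers latent TGF-beta, for Hsph1 and Hsp90aa1, and the cholesterol hydroxylase gene Ch25h for Dnaja1. With scaled counts, a choice made after the values were seen, the nearest genes were Egr3 for Hsph1 (0.986), Has1 for Hsp90aa1 (0.989) and Hsp90aa1 for Dnaja1 (0.987). Tnfaip6 then took places 2, 2 and 6, at 0.981, 0.989 and 0.963.

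Of these 5 neighbours, 4 kept the library order of the chaperones in both groups, with Mid1 the exception. Their choice by correlation over the same libraries favours a shared order, so nothing further is read from it. All 5 had a smaller spread in TMAO+IR than each chaperone gene. Tnfaip6 was 3.87, 5.40 and 4.09 FPKM in IR replicates 1, 2 and 3 and 11.7, 13.7 and 7.41 FPKM in the TMAO+IR replicates. Its SD on the log2 scale was 0.45 in TMAO+IR, less than the 0.97 of Hsph1. Has1 was 9.25, 13.6 and 10.3 FPKM in IR and 29.6, 34.8 and 15.5 FPKM in TMAO+IR, with an SD of 0.62 in TMAO+IR. For these neighbours the ratio of mean FPKM between the groups ran from 2.04 (Lrrc32) to 2.45 (Tnfaip6), below those of Hsph1 (6.14) and Hsp90aa1 (3.59).

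The immediate early genes, transcription factor genes switched on within minutes of a stimulus, were set beside the chaperones as another fast stress response. Of 24 such genes 8 were listed, and all 8 were called as higher in the authors' deposited table, where 81.9% of listed genes were. Their ratios of mean FPKM lay between 2.13 (Nr4a2) and 2.84 (Fos). TMAO+IR replicate 2 was the highest of the 6 libraries in 6 of the 8, with Fosl1 and Klf6 highest in TMAO+IR replicate 1. TMAO+IR replicate 3 was the lowest of its group in all 8, as it was in 100 of the 122 listed genes that were higher. Over the same 122 genes TMAO+IR replicate 2 was the highest of its group in 60. Fos was 32.2, 60.2 and 61.4 FPKM in IR replicates 1, 2 and 3 and 129, 204 and 103 FPKM in the TMAO+IR replicates, and its groups did not overlap.

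With Hsph1 the centred correlation ran from 0.65 (Nr4a2) to 0.97 (Egr3), with Fos at 0.74, Jun at 0.87 and Egr1 at 0.87. With Dnaja1, Jun stood at 0.95 and Egr1 at 0.93. Egr3 thus stood above the neighbour Ch25h with Hsph1 (0.94), and Jun and Egr1 above the neighbour Mid1 with Dnaja1 (0.92). However, Ch25h was not among the 5 nearest of Hsph1, nor Mid1 among those of Dnaja1. In FPKM no early gene was among the 5 nearest of any chaperone gene. With Hsph1 and Hsp90aa1, Jun and Egr1 stood below all 5 neighbours in FPKM. This depended on the measure. With scaled counts Egr1 and Jun took places 2 and 3 for Dnaja1, both at 0.970, and Egr3 took place 1 for Hsph1. No early gene was then among the 5 nearest of Hsp90aa1. Within TMAO+IR the SDs of the early genes lay between 0.38 (Nr4a3) and 0.83 (Fosl1), all below that of each chaperone gene on this scale.

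**Figure D4:**
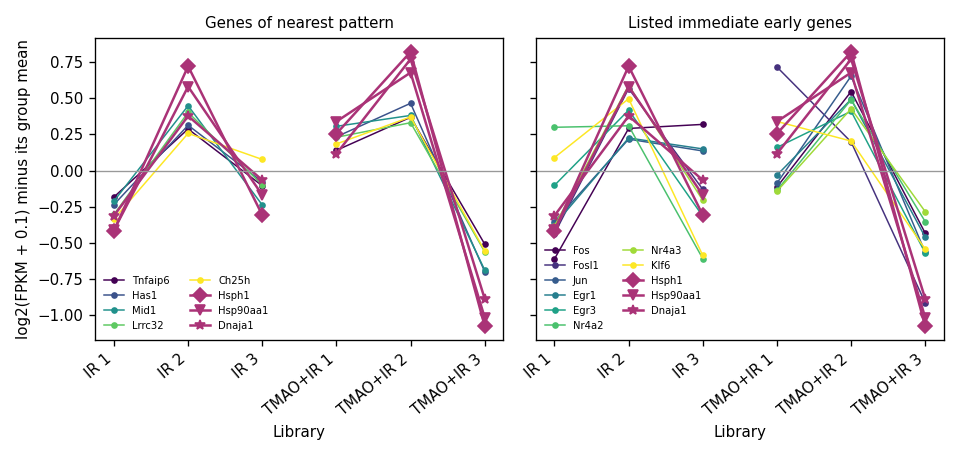
Deviation of log2(FPKM + 0.1) from its group mean in each of the 6 libraries, with lines joining the values of a gene within a group, for the chaperone genes (purple) beside the genes of nearest pattern (left) and the 8 listed immediate early genes (right). In TMAO+IR replicate 3 the chaperone genes lie lowest, at -1.08 (Hsph1), -1.02 (Hsp90aa1) and -0.89 (Dnaja1), apart from Fosl1 at -0.91.

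The rest of the chaperone system was looked for in 10 lists that hold 108 genes with these 3. The deposited table held none of the other 105, whose expression was not analysed here. Among these were the other cytosolic HSP70 and HSP90 genes, the other J-domain genes, the small heat shock proteins, the co-chaperones such as Bag3 and Stip1, and Hsf1, which encodes heat shock factor 1. The 9 mitochondrial chaperone genes and the 20 genes of the endoplasmic reticulum and the unfolded protein response, Eif2ak3 (PERK) of the series title among them, were not in the table either. Absence from the table does not show that a gene was level between the groups. In the functional annotation of the authors' deposited table, 3 of the 149 genes carried the pathway protein processing in endoplasmic reticulum, and these were Hsph1, Hsp90aa1 and Dnaja1. The term response to heat was given to 4 genes, Hsp90aa1, Dnaja1, Il6 and Pde4b, and not to Hsph1.

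Markers of cell types were mostly outside the table, with 6 of 60 listed. In bulk tissue fewer cells of a type and less RNA per cell cannot be told apart. Of 10 cardiomyocyte markers only Myh7 was listed, so the labelled tissue could not be checked on the others. Myh7 was higher in TMAO+IR but ran against the chaperones between libraries, at 27.5, 29.3 and 56.5 FPKM in TMAO+IR replicates 1, 2 and 3 and a centred correlation of -0.62 with Hsph1. The 2 listed of 8 monocyte and macrophage markers, Ccr2 and Chil3, summed to 1.06 to 1.83 FPKM in IR and 2.77 to 6.11 FPKM in TMAO+IR, and neither was at 0 in any library. Ccr2 had a centred correlation of 0.98 with Hsph1, at levels of 0.25 to 1.28 FPKM, and Chil3 one of 0.79. The listed neutrophil marker of 8, Mmp8, went from 3.53 to 6.75 FPKM in IR to 8.89 to 11.7 FPKM in TMAO+IR, with a centred correlation of 0.13. The endothelial marker Ackr1 went from 0.80 to 0.88 FPKM in IR to 1.83 to 2.58 FPKM in TMAO+IR, with a centred correlation of 0.58. The erythrocyte marker Slc4a1 was lower in TMAO+IR, at 0.08 to 0.16 FPKM against 0.23 to 0.49 FPKM in IR, with the same correlation of 0.58. The part of these cell types in the chaperone levels was not tested.

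**Figure D5:**
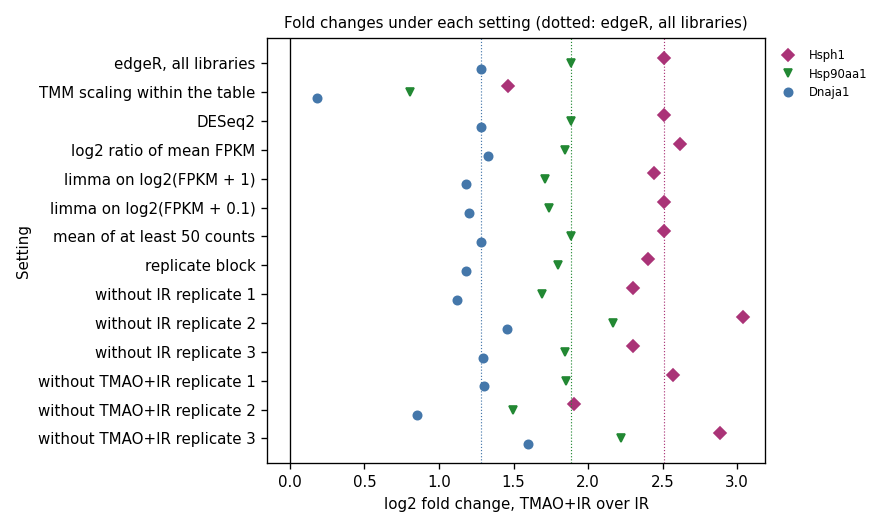
log2 fold change of TMAO+IR over IR (horizontal) for Hsph1, Hsp90aa1 and Dnaja1 under each setting (vertical), with dotted lines at the edgeR values from all libraries. Hsph1 stays to the right of Hsp90aa1 and Hsp90aa1 to the right of Dnaja1 in each row, and the lowest values, 1.46, 0.80 and 0.18, come with TMM scaling within the table.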

How the data were processed

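The 6 libraries were made from RNA enriched on oligo(dT) beads, per the labels' protocols. The deposited table holds whole-number counts per gene and library, FPKM per library to 2 decimals with the group means of the authors, and the authors' own log2 fold change, p-value and FDR, whose tool the sources used here do not name. Per the submitters' processing notes, the build was GRCm38 and the tools were HISAT2, StringTie 1.3.1, Bowtie2 2.2.8, fastp 0.18.0, edgeR and DESeq2, with no role given. Columns headed T-IR were matched to TMAO+IR, the only group beside IR.

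Relative library sizes were derived by dividing counts by FPKM in 86 genes, and absolute sizes from 12 of these with 1 annotated transcript (GENCODE M21). Counts of the 149 genes were fitted with edgeR 4.0.16 (quasi-likelihood, R 4.3.3), which was also tested on simulated data. Alternatives used DESeq2 1.42.0, limma 3.58.1, FPKM, a minimum mean of 50 counts, a replicate block, and leaving out each library. The named genes were the 3 chaperones, listed genes of the chaperone and early gene lists, and the 5 genes of nearest pattern to each. Members and lists were chosen with earlier results of these data known. A planned comparison of proteins was not made, and the promoter of Hsp90aa1 was not analysed here.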

Additional observations from a re-analysis of the deposited data

How the results depend on the processing

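The 3 fold changes kept their direction under every alternative run. TMM scaling within the table, which centres a list chosen for its change, moved the median of the list from 1.16 to 0.14 (log2) and gave 1.46 for Hsph1, 0.80 for Hsp90aa1 and 0.18 for Dnaja1. In 6 other alternatives (DESeq2, FPKM means, limma with either pseudocount, the count minimum and the replicate block) the log2 values ran from 2.40 to 2.62 (Hsph1), 1.71 to 1.89 (Hsp90aa1) and 1.18 to 1.33 (Dnaja1). Leaving out 1 library gave 1.90 to 3.04, 1.49 to 2.22 and 0.86 to 1.60, each lowest without TMAO+IR replicate 2. With the replicate block the values were 2.40, 1.80 and 1.18. The labels name no pairs, and same-numbered libraries deviated with correlations of -0.32, 0.33 and -0.08 over 117 genes, with only replicate 2 nearest to its own number. The count of higher genes whose groups did not overlap was 116, 120 with scaled counts, 94 with a mean of at least 50 counts and 116 to 122 without 1 library. Dnaja1 joined this count with scaled counts, without IR replicate 2 and without TMAO+IR replicate 3. By spread in TMAO+IR, the places 1, 2 and 3 of Hsph1, Hsp90aa1 and Dnaja1 became 1, 3 and 4 with scaled counts and 1, 3 and 5 over all listed genes, alternatives chosen after the data were seen. Each chaperone gene had at least 779 counts in every library, so depth mattered only for the near tie of Dnaja1 between IR replicate 2 and TMAO+IR replicate 3.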

Other observations

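The number of counts behind 1 FPKM gives the transcript length that the quantification assumed on average for a gene in a library. For Hsph1 this implied length was 3.26, 3.46 and 3.06 kb in IR replicates 1, 2 and 3 and 2.70, 3.35 and 2.97 kb in TMAO+IR replicates 1, 2 and 3. For Dnaja1 it stayed between 1.94 and 2.19 kb over the 6 libraries, and for Hsp90aa1 between 2.78 and 3.28 kb. GENCODE M21 annotates 11 transcripts of Hsph1, 8 of Hsp90aa1 and 10 of Dnaja1, and the level of single transcripts was not analysed here.

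Art5, an ADP-ribosyltransferase gene singled out after its values were seen, ran furthest against the chaperones within groups in FPKM. Its centred correlations were -0.91 with Hsph1, -0.93 with Hsp90aa1 and -0.98 with Dnaja1. With scaled counts Rbp7 was furthest from Hsph1, at -0.89 against -0.78 for Art5. The SD of log2(FPKM + 0.1) of Art5 was only 0.07 in IR, against 0.31 in TMAO+IR, so these values rest mostly on the TMAO+IR libraries. Art5 was 6.84, 6.21 and 6.37 FPKM in IR replicates 1, 2 and 3 and 3.04, 2.60 and 4.02 FPKM in the TMAO+IR replicates, lower in the latter group without overlap.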
